A study of Mus musculus with 12 samples.

Results

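The pyruvate dehydrogenase kinase genes Pdk1, Pdk2, Pdk3 and Pdk4 were described through the H3K27ac signal of the intervals that carry their names. The members were taken by gene name from a table of 126464 intervals with 22264 gene names. In all, 53 intervals bore such a name, of which 14 were named Pdk1, 10 Pdk3 and 29 Pdk4, and no interval was named Pdk2. The family was chosen by the large change of Pdk4 with etomoxir that was already known from these libraries, so the changes of Pdk4 with etomoxir are given as a description and without a test.

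Acetylation of lysine 27 of histone H3 (H3K27ac), which marks promoters and enhancers in use, was mapped by ChIP-seq (sequencing of DNA bound by an antibody to the mark) in 4T1, a wild-type mouse mammary carcinoma cell line. Cells were grown in culture for 48 h in one of 6 treatments, which were Vehicle, Acetate (5 mM), Etomoxir (50 µM), Etomoxir + Acetate, SB204990 + Etomoxir (50 µM of each) and SB204990 + Etomoxir + Acetate. Acetate can be made into acetyl-CoA, etomoxir inhibits the carnitine palmitoyltransferase that lets long-chain fatty acids into mitochondria, and SB204990 inhibits ATP citrate lyase. Each treatment had 2 libraries, called set 1 and set 2 after a suffix shared across treatments, and SB204990 was never given without etomoxir. The labels do not say whether the 2 libraries came from separate cultures, so p-values measure the spread between these libraries, which may be technical. For gene sums this spread was in part pooled over genes of like signal. For single intervals it was that of intervals of like signal, so the interval's own spread did not enter its SE or p-value. All values come from a single cell line in bulk, where a change in the share of cells that carry the mark and a change of the mark within each cell cannot be told apart.

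Values are scaled reads, that is reads in an interval multiplied by a factor that the authors derived from human chromatin added to every sample. The libraries held 7179165 to 16676442 reads in intervals, with 197 to 349 reads behind the Pdk1 sum, 678 to 1427 behind Pdk3 and 1183 to 4139 behind Pdk4. The SB204990 + Etomoxir library of set 2 was the shallowest, and values without it are given where it changed a call. In vehicle, 5 of 8 epithelial marker genes had intervals by name and stood at the 77.6 (Krt14), 89.4 (Epcam), 98.0 (Cdh1), 98.1 (Cldn4) and 99.2 (Krt8) percentile of all gene sums. Of 9 markers of other cell types, 5 had intervals and stood at 17.4 (Cd3e, T cells), 35.1 (Ptprc, leukocytes), 42.1 (Adipoq, adipocytes), 47.4 (Cdh5, endothelium) and 86.3 (Pecam1, endothelium), the last of which was above Krt14.

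The pyruvate dehydrogenase complex turns pyruvate into acetyl-CoA inside mitochondria and so links glycolysis to the citric acid cycle. The kinases phosphorylate its E1 alpha subunit and switch the complex off, and the pyruvate dehydrogenase phosphatases switch it on again. The isoforms differ in tissue and in control: PDK1 is known as a target of HIF-1 in hypoxia, PDK2 is widely expressed, PDK3 is most abundant in testis and brain, and PDK4 is induced by fasting, fatty acids, glucocorticoids and PPAR agonists, when tissues spare glucose.

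The bases upstream of the 4 start sites are shown because the start-site intervals described after them cover these bases. The sequences are from RefSeq on GRCm38.p6 (mm10), 5′ to 3′ on the strand of the gene, and all 4 members matched. Capitals mark the letters searched for on both strands, which were AGGTCA (bound by nuclear receptors), GTAAACA (a forkhead motif), ACGTG and GCGTG (cores bound by bHLH-PAS and related factors), CCAAT (the NF-Y box) and GGGCGG (the GC box). Matches of ACGTG can overlap each other within CACGTG. A direct repeat of AGGTCA with 1 base between the repeats, the form bound by PPAR and RXR, was searched for with up to 2 mismatches. For Pdk3 and Pdk4 the RefSeq start lies 51 and 31 bases inside the transcript annotated by GENCODE, and those bases are not printed. The windows are chr2:71872974-71873223 on the plus strand for Pdk1, chr11:95041372-95041621 on the minus strand for Pdk2, chrX:93832202-93832400 on the minus strand for Pdk3 and chr6:5496310-5496528 on the minus strand for Pdk4.
Pdk1: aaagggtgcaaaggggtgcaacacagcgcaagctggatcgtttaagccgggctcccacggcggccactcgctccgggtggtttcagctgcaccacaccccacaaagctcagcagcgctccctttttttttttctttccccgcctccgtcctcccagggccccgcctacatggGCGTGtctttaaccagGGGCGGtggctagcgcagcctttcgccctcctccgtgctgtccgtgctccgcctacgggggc
Pdk2: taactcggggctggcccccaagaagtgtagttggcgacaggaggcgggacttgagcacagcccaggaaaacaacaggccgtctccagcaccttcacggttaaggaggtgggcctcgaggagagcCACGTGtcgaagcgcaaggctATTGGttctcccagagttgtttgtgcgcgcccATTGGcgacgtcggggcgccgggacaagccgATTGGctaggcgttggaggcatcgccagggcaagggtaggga
Pdk3: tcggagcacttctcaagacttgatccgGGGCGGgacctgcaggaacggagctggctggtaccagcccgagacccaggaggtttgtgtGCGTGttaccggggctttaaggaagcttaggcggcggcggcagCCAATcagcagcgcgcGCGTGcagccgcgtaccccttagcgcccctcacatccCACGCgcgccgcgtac
Pdk4: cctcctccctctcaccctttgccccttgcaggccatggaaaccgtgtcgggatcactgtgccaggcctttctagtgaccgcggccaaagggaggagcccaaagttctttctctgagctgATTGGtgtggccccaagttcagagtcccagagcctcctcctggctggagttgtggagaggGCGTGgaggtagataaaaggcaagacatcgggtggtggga

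Over the 250 bases upstream of the RefSeq start, Pdk4 had 6 CpG dinucleotides, the same as the median of all 32851 promoter windows of that length, whereas Pdk1 and Pdk2 had 19 each and Pdk3 had 29. The CCAAT box was found once in Pdk3 and Pdk4 and 3 times in Pdk2, and 33.9% of all promoter windows held it. GCGTG was found once in Pdk1 and Pdk4 and 3 times in Pdk3, against 28.2% of all windows. Pdk2 held ACGTG on both strands as CACGTG and Pdk3 held it once, at 53 bases before its RefSeq start in the part not printed in full, against 16.6% of windows. GGGCGG was found once in Pdk1 and once in Pdk3, against 32.7% of windows. AGGTCA, its direct repeat and GTAAACA were found in none of the 4 windows, and in 14.0%, 3.24% and 3.17% of all windows. The absence of these letters covers only the 250 bases searched.

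Pdk4 was the member whose H3K27ac differed most between treatments. Its intervals summed to 710.5 and 937 scaled reads in vehicle (sets 1 and 2) and to 1037 and 1106 with acetate. With etomoxir they summed to 2204 and 2301, and with etomoxir + acetate to 3285 and 3289. With SB204990 + etomoxir they summed to 1648 and 2191, and with SB204990 + etomoxir + acetate to 2339 and 3113. The 8 libraries with etomoxir all lay above the 4 without it. The fold over the treatment without inhibitor, within sets 1 and 2, was 3.10 and 2.45 for etomoxir over vehicle, 3.17 and 2.97 for etomoxir + acetate over acetate, 2.32 and 2.34 for SB204990 + etomoxir over vehicle, and 2.26 and 2.81 for SB204990 + etomoxir + acetate over acetate. Both comparisons with vehicle share its libraries, and both with acetate share those of acetate.

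Averaged over the absence and presence of acetate, etomoxir changed the Pdk4 sum by 1.54 on the log2 scale, a 2.91-fold difference, with 1.65 in set 1 and 1.43 in set 2. The median of all genes was 0.29. In the 19458 genes tested, Pdk4 had the highest value, and it ranked 1 in etomoxir over vehicle, 4 in etomoxir + acetate over acetate, 52 in SB204990 + etomoxir over vehicle and 5 in SB204990 + etomoxir + acetate over acetate. These ranks are what the family was chosen by and are not evidence of their own. Of all genes, 0.298% were called higher with etomoxir (limma, Benjamini-Hochberg adjusted p under 0.05). This share rested on the SB204990 + Etomoxir libraries, since it was 32.0% without that of set 1 and 33.1% without that of set 2.

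As a share of the reads of each library, which does not use the spike-in, Pdk4 took 103 to 122 of every 1000000 reads in intervals without etomoxir and 241 to 308 with it. Pdk1 took 20.9 to 22.9 without and 19.8 to 27.4 with etomoxir, and Pdk3 took 84.1 to 102 and 84.9 to 98.2, so both overlapped.

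**Figure D1:**
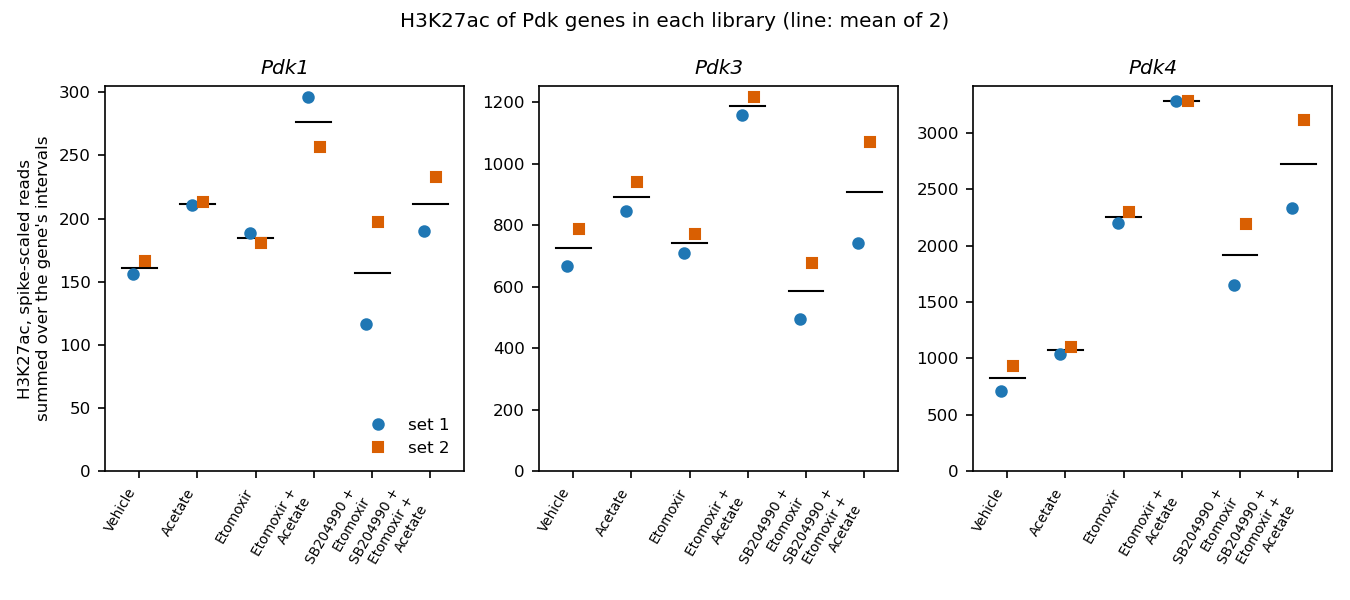
H3K27ac of Pdk1, Pdk3 and Pdk4 in each of the 12 libraries, as spike-scaled reads summed over the intervals named for the gene (y axis, from 0) by treatment (x axis). Circles are set 1, squares are set 2 and the line is their mean. The Pdk4 sums with etomoxir, from 1648 to 3289, all lie above those without it, from 710.5 to 1106, which is not so for Pdk1 and Pdk3.

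The Pdk4 signal was spread over 29 intervals that reached from 127.8 kb upstream of the start site to 35.6 kb downstream of it, and 4 of them overlapped the 12959 bases of the gene. The largest was 24197 bases long (chr6:5495394-5519590 in mm10), covered the start site with most of its length upstream, and was annotated by the authors as intergenic. It held 50.1% of the Pdk4 sum. It held 247 and 297 scaled reads in vehicle, 399.6 and 393 with acetate, 1123 and 1201 with etomoxir and 1710 and 1726 with etomoxir + acetate. With SB204990 it held 935 and 1093 beside etomoxir, and 1304 and 1679.9 beside etomoxir + acetate. The lowest value with etomoxir, 935, was above the highest without it. Set 2 was above set 1 in every treatment but acetate. Etomoxir over vehicle was 4.55-fold in set 1 and 4.04-fold in set 2, and etomoxir + acetate over acetate was 4.28-fold and 4.39-fold. As a share of library reads, this interval took 36.2 to 39.7 of every 1000000 reads without etomoxir and 125 to 175 with it.

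The other Pdk4 intervals differed less with etomoxir than the one at the start site. On the log2 scale the average etomoxir effect was 2.11 at the start site, against a median of 0.33 over all intervals. It was 1.36 in an interval of 8564 bases centred 58.2 kb upstream (chr6:5550181-5558744), 1.35 in an interval of 11402 bases centred 90.3 kb upstream (chr6:5580934-5592335) and 0.62 in an interval of 5611 bases centred 127.8 kb upstream (chr6:5621319-5626929). These 3 held 10.5%, 16.3% and 9.57% of the sum. Inside the gene the effect was 0.91 and 0.71 in intervals centred 1.73 and 3.17 kb past the start, and the one centred 9.90 kb past it stood 2.30-fold higher, on 16.7 to 37.5 scaled reads on average. Of the 29 Pdk4 intervals, 13 averaged 10 or more scaled reads across the 12 libraries and could be fitted. For 3 of these the mean over the 4 libraries without etomoxir was under 10, so they passed through the libraries where they were high, and no count over the 13 is given.

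Of the mean gain of the Pdk4 sum from vehicle to etomoxir, 62.3% was in the start-site interval, 14.4% in the one 90.3 kb upstream, 10.2% in the one 58.2 kb upstream and 4.02% in the one 127.8 kb upstream. The 16 Pdk4 intervals with means under 10 were not tested, and together they held 43.0 and 77.6 scaled reads in vehicle and 109.7 and 91.0 with etomoxir. In set 1 their sum was 2.55-fold higher with etomoxir and 15 of the 16 were higher, while in set 2 it was 1.17-fold higher and 9 were higher.

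The difference with etomoxir was not bounded by the intervals named Pdk4. Downstream of Pdk4 lies Asb4, which encodes a substrate receptor of an E3 ubiquitin ligase, and 2 intervals carried its name within 250 kb. The one centred 82.2 kb past the Pdk4 start (chr6:5409686-5418550) held 113 and 157 scaled reads in vehicle and 275 and 308 with etomoxir. It rose by 1.12 ± 0.21 (SE) on the log2 scale in etomoxir over vehicle (limma over all intervals, adjusted p = 0.00051), where 0.0563% of 63903 intervals were called higher. It was named because it passed this test, so this p-value is not evidence of its own. Its average etomoxir effect was 1.28 ± 0.15 (limma, adjusted p = 1.1e-13). Over 23 alternative fits that effect was 0.95 to 1.40, and its call was kept in 21 of them. The longer one, of 34760 bases centred 55.9 kb past the start (chr6:5423055-5457814), rose by 0.81 ± 0.12 on average (limma, adjusted p = 7.0e-08), though in etomoxir over vehicle alone its 0.65 ± 0.17 did not pass (limma, adjusted p = 0.19). On average over both acetate states, 0.419% of intervals were called higher with etomoxir. After scaling each library by the median ratio over intervals, the longer one was at 0.47 and was no longer called. Its call was kept in 19 of 23 alternative fits. Beyond Asb4, 5 intervals named Pon2 or Pon3, paraoxonase genes, had average effects of 0.26 to 0.91, and none was called. No tested interval within 250 kb upstream was named for another gene. Around the other members, none of the 19, 26 and 12 tested intervals with other names within 250 kb of the Pdk1, Pdk2 and Pdk3 start sites was called with etomoxir, and their medians were 0.28, 0.22 and 0.30.

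**Figure D2:**
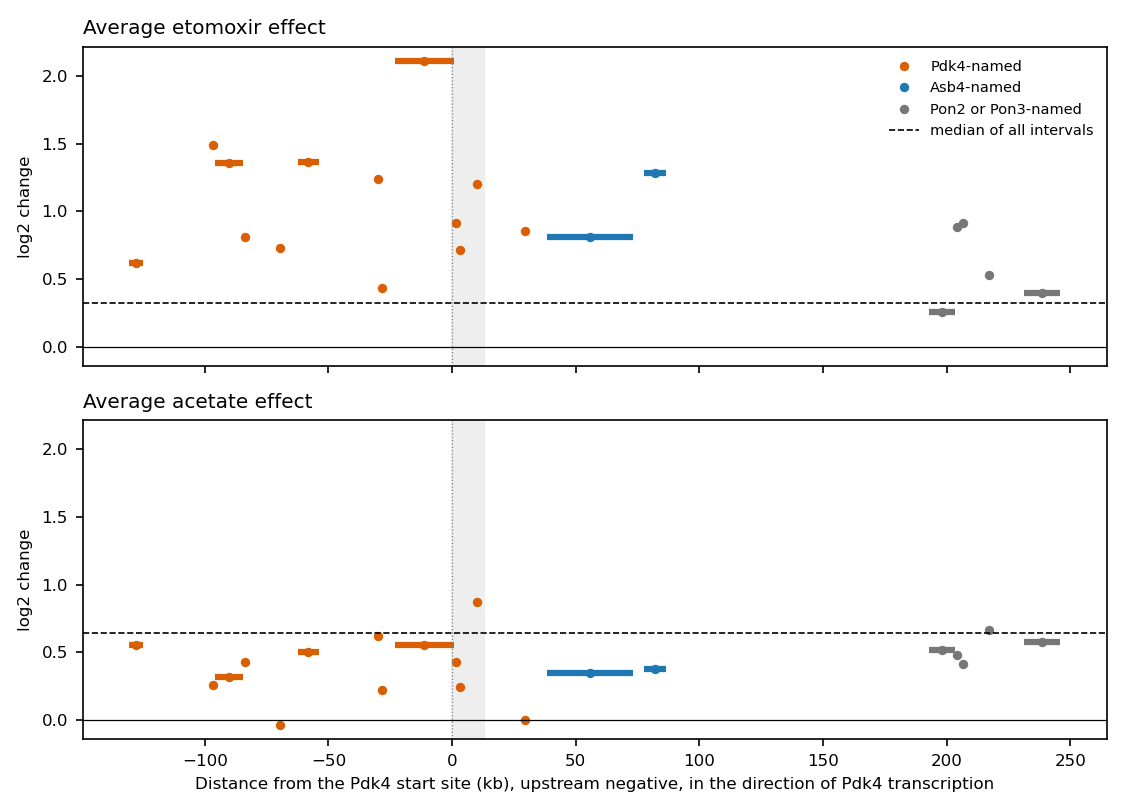
Average etomoxir effect (top) and average acetate effect (bottom) on the log2 scale for the 20 tested intervals within 250 kb of the Pdk4 start site, by distance of the interval centre from that site in kb. Bars span each interval, the grey band is the Pdk4 gene, the dashed line is the median of all intervals, and the start-site interval stands highest in the top panel at 2.11 but at 0.55 in the bottom panel.

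The acetate change of Pdk4 was not used to choose it. Acetate raised the Pdk4 sum by 0.48 ± 0.11 (SE) on the log2 scale on average over the 3 inhibitor backgrounds (limma, adjusted p = 0.00037), that is 1.40-fold. Libraries of the same set gave 1.46-fold and 1.18-fold for acetate over vehicle, 1.49-fold and 1.43-fold beside etomoxir, and 1.42-fold and 1.42-fold beside SB204990 + etomoxir, so all 6 pairs were higher with acetate. This was below the median of all genes, 0.63, and 88.2% of genes were called higher, so the share of members called, 3 of 3, was near the background. The start-site interval changed by 0.55 ± 0.10 (limma, adjusted p = 9.6e-07), against a median of 0.64 over all intervals.

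The acetate difference depended on the spike-in scaling. With median-of-ratios scaling, in which the median gene was set to no change, the acetate effect was −0.16 for Pdk1, −0.10 for Pdk3 and −0.16 for Pdk4, and none was called. The etomoxir effect on Pdk4 was 1.25 under the same scaling.

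Acetate was given with and without each inhibitor treatment, so that a departure from additive log2 changes could be tested. For Pdk4 the interaction of acetate and etomoxir was 0.15 ± 0.27 (limma, adjusted p = 0.79) and that of acetate with both inhibitors was 0.11 ± 0.27 (limma, adjusted p = 1.00). The same 2 values were 0.18 ± 0.35 and 0.08 ± 0.35 for Pdk1 and 0.38 ± 0.29 and 0.32 ± 0.29 for Pdk3, and none passed. The errors leave room for a departure of either sign. With limma, 0 of 19458 genes were called in either interaction, with 31 and 11 at an unadjusted p under 0.05. edgeR and DESeq2 called 0 as well, with 38 and 97 genes under 0.05 by edgeR and 20 and 34 by DESeq2.

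Adding SB204990 to etomoxir left Pdk4 far above vehicle. The Pdk4 sum changed by −0.26 ± 0.13 on average (limma, adjusted p = 0.098), against a median of −0.40 over all genes. Libraries of the same set were at 0.75 and 0.95 of the level with etomoxir alone, and at 0.71 and 0.95 of the level with etomoxir + acetate, so all 4 pairs were lower, by less in set 2. Without the SB204990 + Etomoxir library of set 2 the change was −0.37 and passed, as 85.8% of all genes then did, and it was −0.37 and passed without the SB204990 + Etomoxir + Acetate library of set 2, as did 54.9%. Relative to the median gene the change was of the other sign, 0.13.

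Pdk1, the hypoxia-linked isoform, was carried by few reads. Its sums were 156 and 166 in vehicle, 211 and 213 with acetate, 189 and 180.4 with etomoxir, and 296 and 256 with etomoxir + acetate. They were 117 and 197 with SB204990 + etomoxir, and 190.2 and 233 with SB204990 + etomoxir + acetate. The 2 libraries with SB204990 + etomoxir lay on both sides of vehicle. Acetate raised Pdk1 by 0.48 ± 0.14 on average (limma, adjusted p = 0.0034), and all 6 pairs within a set were higher. The average etomoxir effect was 0.29 ± 0.17 (limma, adjusted p = 0.23), next to the all-gene median of 0.29, and that of adding SB204990 was −0.33 ± 0.17 (limma, adjusted p = 0.11). Without the SB204990 + Etomoxir library of set 2 the latter was −0.52 and passed, as 85.8% of all genes then did.

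Of the 14 intervals named Pdk1, 10 overlapped Itga6, an integrin gene upstream of it, and only 2 overlapped Pdk1. The Pdk1 sum is therefore partly a sum over Itga6. The interval over the Pdk1 start site (chr2:71872651-71874952, 2302 bases, annotated promoter-TSS) held 50.3% of the sum. It held 91.6 and 82.4 scaled reads in vehicle, 117 and 98.2 with acetate, 96.6 and 96.2 with etomoxir and 140 and 123 with etomoxir + acetate. Acetate raised it by 0.41 ± 0.15 (limma, adjusted p = 0.013), and leaving out a library ended the call in 2 of 12 cases. Etomoxir changed it by 0.22 ± 0.19 (limma, adjusted p = 0.40). Of the other 3 tested Pdk1 intervals, 1 was called higher with acetate, against 77.2% of all intervals, at 0.55 ± 0.26 (limma, adjusted p = 0.046), and it lay 16.7 kb upstream.

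Pdk3 had more signal and smaller errors. Its sums were 667 and 786 in vehicle, 847 and 939 with acetate, 710.35 and 771 with etomoxir, and 1159 and 1216 with etomoxir + acetate. They were 495 and 678 with SB204990 + etomoxir and 743 and 1070.2 with SB204990 + etomoxir + acetate. Etomoxir over vehicle was 1.07-fold in set 1 and 0.98-fold in set 2, within the spread of vehicle. Acetate raised Pdk3 by 0.53 ± 0.12 on average (limma, adjusted p = 0.00023), and etomoxir changed it by 0.22 ± 0.14 (limma, adjusted p = 0.24).

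Adding SB204990 to etomoxir lowered the Pdk3 sum by −0.38 ± 0.14 (limma, adjusted p = 0.037), close to the all-gene median of −0.40, and 45.0% of genes were called lower. Of the 3 members with named intervals, Pdk3 alone passed. Its call was lost without any one of 8 libraries, namely both libraries of Acetate, both of Etomoxir, both of Etomoxir + Acetate, and the set 1 libraries of SB204990 + Etomoxir and SB204990 + Etomoxir + Acetate, with values of −0.41 to −0.25. Without the SB204990 + Etomoxir library of set 2 it was −0.51. Under median-of-ratios scaling it was 0.011.

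Most of the Pdk3 signal lay at the far end of the gene as GENCODE annotates it. An interval of 19968 bases at its 3′ end (chrX:93753712-93773679, annotated TTS) held 78.7% of the sum, with 534 and 641 scaled reads in vehicle and 881 and 971 with etomoxir + acetate. It reached past the annotated end of the gene at 93764607. The deposited table lists the interval over the GENCODE start at −62426 bases from the Pdk3 start it used. That start therefore lies inside this 3′ interval. The interval over the start site (chrX:93829292-93833799, 4508 bases, annotated as an intron of Pdk3) held 16.2%, with 113 and 118 in vehicle, 132 and 127 with etomoxir and 208 and 176 with etomoxir + acetate. Acetate raised both alike, by 0.52 ± 0.11 and 0.53 ± 0.14 (limma, adjusted p = 5.9e-06 and 0.00050). Adding SB204990 lowered both, by −0.34 ± 0.13 and −0.50 ± 0.17 (limma, adjusted p = 0.047 and 0.031). Both lost the SB204990 call when the low-value filter was dropped. With median-of-ratios scaling, total-sum scaling or limma without a trend, 0% of all intervals were called lower with SB204990 added, and the start-site interval was at −0.094, −0.10 and −0.50. Of all intervals, 77.2% were called higher with acetate and 19.2% lower with SB204990 added. The SB204990 call of the start-site interval was lost in 8 of 12 fits that each left out a library, with values of −0.60 to −0.39 over the 12.

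Pdk2 had no interval of its own name, but its start site was covered. A broad interval of 72130 bases (chr11:95039251-95111380), named for Itga3, an integrin gene, held the whole of Itga3 and 13.9% of Pdk2 with its start site. It held 6941 and 6612 scaled reads in vehicle, 9839 and 8471 with acetate, 7177 and 7283 with etomoxir and 10934 and 10689.8 with etomoxir + acetate. With SB204990 it held 5278 and 4894 beside etomoxir, and 7650.2 and 10174 beside etomoxir + acetate. How much of this belonged to either gene cannot be told apart. Acetate raised it by 0.60 ± 0.10 (limma, adjusted p = 1.7e-08), adding SB204990 lowered it by −0.40 ± 0.12 (limma, adjusted p = 0.016), and etomoxir changed it by 0.17 ± 0.12 (limma, adjusted p = 0.33). The SB204990 call was lost in 5 of 12 fits that each left out a library, with values of −0.50 to −0.30 over the 12.

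Compared per kb of interval, the order of the start-site intervals changed with etomoxir. The bounds of an interval were the same in all 12 libraries. Whether the marked stretch was as wide in each treatment was not tested, and a narrower one would lower the level per kb. In vehicle the levels were 93.9 ± 3.2 scaled reads per kb at Pdk2 and Itga3, 37.8 ± 2.8 at Pdk1, 25.6 ± 0.85 at Pdk3 and 11.2 ± 1.5 at Pdk4 (SD, n = 2). No 2 neighbours in this order overlapped. With etomoxir they were 100.2 ± 1.0, 41.9 ± 0.12, 28.7 ± 0.86 and 48.0 ± 2.3, so that Pdk4 passed Pdk1 and Pdk3. With etomoxir + acetate they were 149.9 ± 2.4, 57.1 ± 5.3, 42.6 ± 5.1 and 71.0 ± 0.47. With SB204990 + etomoxir they were 70.5 ± 3.8, 32.7 ± 0.21, 19.6 ± 2.0 and 41.9 ± 4.6.

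Among all 126464 intervals ranked per kb, the Pdk4 start-site interval stood at the 43.7 percentile in vehicle, 47.1 with acetate, 97.9 with etomoxir and 97.4 with etomoxir + acetate. The Pdk1 interval stayed between 94.4 and 96.8 over the 6 treatments, that of Pdk3 between 82.1 and 91.8, and that of Pdk2 and Itga3 at 99.9 in each. Among the 13561 intervals of at least 5 kb, a limit set after the values were seen, the Pdk4 interval stood at 2.88 in vehicle and 86.3 with etomoxir.

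**Figure D3:**
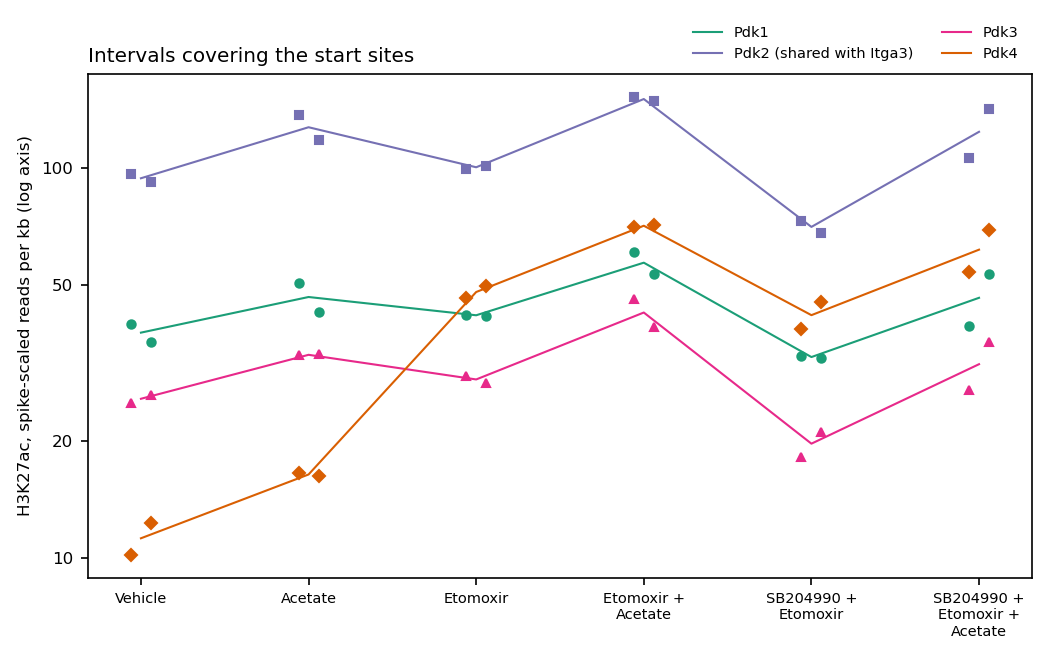
H3K27ac per kb (log axis) of the intervals that cover the start sites of the 4 kinase genes, by treatment. Symbols are the 2 libraries, set 1 to the left, and lines join their means. Pdk4 goes from the lowest at 11.2 in vehicle to above Pdk1 and Pdk3 at 48.0 with etomoxir, while the interval shared by Pdk2 and Itga3 stays the highest throughout.

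In single acetate comparisons, the members' calls went with those of all genes. In acetate over vehicle, 0 of 3 were called, as were 0.0% of all genes by limma, where 8341 genes had an unadjusted p under 0.05, edgeR called 0 and DESeq2 called 399. With the set added to the limma fit as a block, 20.0% of all genes were called higher. The zero was not firm, since 60.6% and 62.0% of genes, and 1 of the 3 members, were called higher without the SB204990 + Etomoxir library of set 1 or set 2, and 11.9% of genes and no member without either library of SB204990 + Etomoxir + Acetate. In etomoxir + acetate over etomoxir, 3 of 3 were called higher, against 78.2% of genes. In SB204990 + etomoxir + acetate over SB204990 + etomoxir, Pdk3 and Pdk4 were called higher, against 57.7% of genes.

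The other genes around the pyruvate dehydrogenase reaction were taken from lists of 37 genes, of which 33 could be tested. Ldhb, Pcx, Bckdhb and Esrra had no interval by name. None of the 33 was called with etomoxir by limma, edgeR or DESeq2, which is near the limma background of 0.298% of all genes. An unadjusted limma p under 0.05 was found for 10 of the 33 and for 27.5% of all genes, and their median etomoxir effect was 0.28 with a range of −0.12 to 0.55. With acetate, 30 of 33 were called higher, against 88.2% of all genes, with a median of 0.59 against 0.63. With SB204990 added, 18 of 33 were called lower, against 45.0%, with a median of −0.39 against −0.40. Under median-of-ratios or total-sum scaling 0 of the 33 were called for either, and at most 0.20% of all genes in the same direction. The counts moved with those of all genes when a library was left out. The SB204990 count was 0, as for all genes, without any one of the Etomoxir or Etomoxir + Acetate libraries or the set 1 SB204990 + Etomoxir + Acetate library. It was 10 without the set 1 Acetate library (27.6% of all genes), 11 without the set 1 SB204990 + Etomoxir library (20.6%) and 29 without that of set 2 (85.8%). Without the SB204990 + Etomoxir library of set 1 or set 2, 8 were called higher with etomoxir, where 32.0% and 33.1% of all genes were.

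All 5 subunit genes of the complex rose with acetate, near the background of 88.2%. Pdha1, which encodes the E1 alpha subunit that the kinases phosphorylate, changed by 0.55 ± 0.13 (limma, adjusted p = 0.00048), and Pdhb (E1 beta), Dlat (E2), Dld (E3) and Pdhx (the E3-binding protein) lay between 0.50 and 0.64. With SB204990 added, Pdhb, Dlat, Dld and Pdhx fell and Pdha1, at −0.32 ± 0.16, did not pass (limma, adjusted p = 0.088). With etomoxir the 5 lay between 0.23 and 0.44. The phosphatases Pdp1 and Pdp2 and their regulatory subunit Pdpr, which oppose the kinases, rose with acetate by 0.50 to 0.58. With SB204990 added, where 45.0% of all genes were called lower, Pdp1 was at −0.69 ± 0.24 and passed (limma, adjusted p = 0.030), while Pdp2 at −0.40 ± 0.19 and Pdpr at −0.30 ± 0.20 did not (limma, adjusted p = 0.085 and 0.19), and whether they differed from Pdp1 was not tested. With etomoxir they were at 0.12 to 0.49.

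The calls of the remaining lists also stood against 88.2% of all genes called higher with acetate and 45.0% lower with SB204990 added. The mitochondrial pyruvate carrier genes Mpc1 and Mpc2 rose with acetate by 0.69 and 0.57 and fell with SB204990 added by −0.45 and −0.39. Of the enzymes that make or use pyruvate outside the complex, Pkm (pyruvate kinase), Ldha (lactate dehydrogenase) and the malic enzymes Me1 and Me2 rose with acetate by 0.47 to 0.68, and Pkm, Ldha and Me2 fell with SB204990 added. Lias, Lipt1 and Lipt2, which provide the lipoyl groups of the complex, rose with acetate by 0.52 to 0.86, and Lipt1 and Lipt2 fell with SB204990 added. Bckdk, which encodes the related kinase of branched-chain ketoacid dehydrogenase, and Ppm1k, the phosphatase that opposes it, rose with acetate by 0.64 and 0.82, and Ppm1k fell with SB204990 added. Bckdha and Dbt, both under 15 scaled reads on average, passed in neither. Under median-of-ratios scaling none of these acetate or SB204990 calls remained.

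Of 12 transcription regulators known to act on Pdk genes, 0 were called with etomoxir, near the background of 0.298%. The PPAR genes Ppara, Ppard and Pparg were at 0.44 ± 0.44, 0.24 ± 0.13 and 0.55 ± 0.24 with etomoxir, the last of which had the highest value of the 33 genes (limma, adjusted p = 0.18). Ppara, the receptor best known for inducing Pdk4 in fasting, had 12.4 scaled reads on average, and Ppard had 4621. Hif1a was at 0.34, Nr3c1 (the glucocorticoid receptor) at 0.32, Foxo1 at 0.48 and Foxo3 at 0.25. With acetate 11 of the 12 rose, near the background of 88.2%, which were Ppard, Pparg, Rxra, Rxrb, Ppargc1a, Ppargc1b, Foxo1, Foxo3, Hif1a, Nr3c1 and Myc. With SB204990 added, 5 of the 12 fell (Ppargc1b, Foxo3, Hif1a, Nr3c1 and Myc), near the background of 45.0%. Signal at a gene of this kind says nothing of the activity of its protein.

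**Figure D4:**
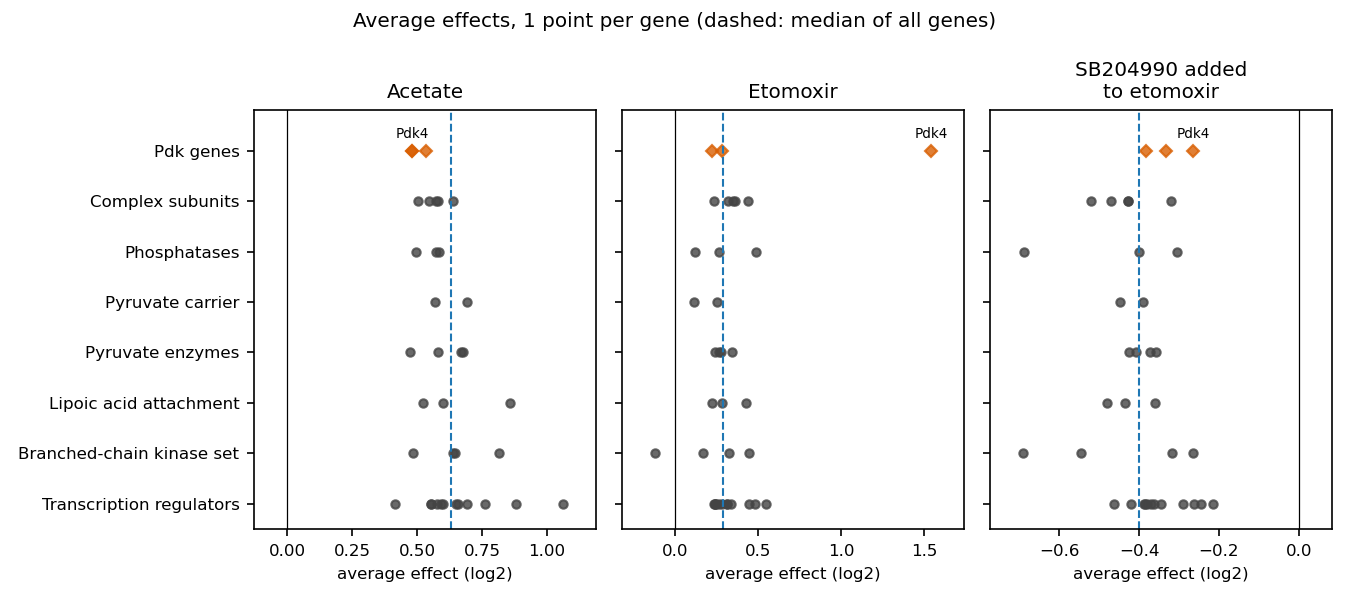
Average effects of acetate, etomoxir and adding SB204990 to etomoxir (x axes, log2) for Pdk1, Pdk3 and Pdk4 (diamonds) and 33 genes of the pathway lists (points), with the median of all genes dashed. Pdk4 at 1.54 with etomoxir stands away from every other gene shown, of which the highest is 0.55.

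The genes whose pattern over the 12 libraries was most like that of Pdk4, after median-of-ratios scaling and among 15533 other genes with a mean of at least 50, were Nceh1 (Pearson r = 0.99), Ucp3 (0.99), Gm17251 (0.98), Specc1l (0.98), 4931413I07Rik (0.98), Prtg (0.98), Aldh1a1 (0.98) and Gm42700 (0.98). Nceh1 encodes a cholesterol ester hydrolase, Ucp3 a mitochondrial uncoupling protein and Aldh1a1 a retinaldehyde dehydrogenase. Their average etomoxir effects were between 0.71 for Specc1l and 1.30 for 4931413I07Rik, all under that of Pdk4, and their acetate effects were between 0.46 and 0.65. The 12 points fall into libraries with and without etomoxir, and the genes compared share them.

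The kinase genes were not alike by the same measure. Pearson r over the 12 libraries was 0.10 between Pdk1 and Pdk3, 0.20 between Pdk1 and Pdk4, and −0.19 between Pdk3 and Pdk4. The genes nearest to Pdk1 were Gm49975 (0.96), Igbp1b (0.90) and Gm48942 (0.90), and those nearest to Pdk3 were Gm42827 (0.91), A630009H07Rik (0.90) and Gm12408 (0.90).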

How the data were processed

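H3K27ac ChIP-seq was analysed in 12 libraries of 4T1 cells (6 treatments, 2 each). As the study's methods state, 7.5% human chromatin was added, and the authors processed reads with nf-core/chipseq v1.2.2 on merged human and mouse genomes. The deposited signal is the read count of an interval multiplied by a spike-in factor of 0.398 to 1, which the authors set so that the highest was 1. The factor was 1 in 2 libraries, 1 in each set, so the sets may be on separate scales, and folds are given within sets. Whole reads were recovered for 100% of values (tolerance 0.01). The factor came from the percentage of human reads, so a library's depth is not otherwise corrected. It moves all intervals of a library together. Values that are whole reads hold no input subtraction.

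Intervals were summed per gene name. limma 3.58.1 (R 4.3.3) with an intensity trend was fitted to log2(scaled + 1) with 6 group means, for 19458 genes and 63903 intervals whose mean was 10 or more, with Benjamini-Hochberg adjustment over all of them and a threshold of 0.05. Fold changes of low features are understated by the pseudocount. The etomoxir effect is the mean over both acetate states, the acetate effect over the 3 backgrounds. edgeR 4.0.16, DESeq2 1.42.0, other scalings, pseudocounts, filters and single libraries left out were alternatives. The fits were tested on simulated data in which the factor was matched to depth. Such data cannot show how an error of the spike-in factor would act on the calls. Start sites are from GENCODE M21.

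The members and lists were chosen with earlier results of these data known. Named were all members, pathway genes that passed an average effect (otherwise up to 3 per list), the 8 genes most like Pdk4 and 3 for the others, and intervals within 250 kb of Pdk4 called in etomoxir vs. vehicle. The Asb4 interval nearer to Pdk4 and the Pon intervals were added after their values were seen. Promoter windows are from RefSeq (GRCm38.p6).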

Additional observations from a re-analysis of the deposited data

How the results depend on the processing

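Direction and calls depended on the spike-in scaling. Setting the median gene to no change (median-of-ratios scaling), which took the all-gene median from 0.63 to −0.0022 for acetate, gave acetate effects of −0.16 (Pdk1), −0.10 (Pdk3) and −0.16 (Pdk4) for the sums and −0.24, −0.054, −0.12 and −0.10 for the start-site intervals of Pdk1, Pdk2, Pdk3 and Pdk4. Total-sum scaling gave −0.14, −0.092 and −0.15, and −0.21, −0.024, −0.091 and −0.072. For etomoxir, Pdk1 and Pdk3 sums were −0.0045 and −0.069 (total-sum −0.046 for Pdk3) and the start-site intervals of Pdk1, Pdk2 and Pdk3 −0.11, −0.17 and −0.077 (total-sum −0.046, −0.10 and −0.0089), while the Pdk4 sum was 1.25 (total-sum 1.27) and its start-site interval 1.77 (total-sum 1.84). For adding SB204990, the sums were 0.059, 0.011 and 0.13 (total-sum 0.059, 0.011 and 0.13), the Pdk1, Pdk2 and Pdk4 start-site intervals 0.070, 0.0041 and 0.20 (total-sum 0.060 and 0.19 for Pdk1 and Pdk4), and the interactions of Pdk1 and Pdk4 −0.11 and −0.14 with etomoxir (total-sum −0.087 and −0.12) and −0.078 and −0.046 with both inhibitors (total-sum −0.11 and −0.082). Multiplying the share of reads by the factor ended the acetate calls at 0.28, 0.33 and 0.28 and the Pdk3 SB204990 call at −0.11, and gave 0.0068 (sum) and 0.063 (start-site interval) for Pdk4 with SB204990, and −0.11 and −0.080 for the interactions of Pdk1 and Pdk4 with both inhibitors. Pathway genes called were 0 under these 3 scalings for acetate and for SB204990, and 0 for SB204990 by limma without a trend, where 0.0051% of all genes were called lower. Dropping the trend or the filter also ended the Pdk3 SB204990 call at −0.38. The Pdk4 sum with etomoxir was 2.11 when only its start-site interval, which is also its strongest, was used. The cause of these changes was not tested.

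Leaving out single libraries gave SB204990 effects of −0.52 to −0.15 (Pdk1), −0.51 to −0.25 (Pdk3) and −0.37 to −0.16 (Pdk4), and acetate effects of 0.35 to 0.60 (Pdk1), 0.45 to 0.62 (Pdk3) and 0.41 to 0.55 (Pdk4), all called, and an etomoxir effect on Pdk4 of 1.44 to 1.64. It gave 0 to 8 pathway genes higher with etomoxir, the 8 without one or the other SB204990 + Etomoxir library, where 32.0% and 33.1% of all genes were called, and 0 to 29 lower with SB204990 (29 without the set 2 SB204990 + Etomoxir library), where 0 to 85.8% of all genes were. The interactions ranged from −0.046 to 0.35 (Pdk4 with etomoxir), −0.092 to 0.32 (Pdk4 with both inhibitors) and −0.30 to 0.45 (Pdk1 with both). The libraries of a set share a suffix whose meaning the labels do not give. The correlation of their deviations was over 0.1 in 4 of 15 group pairs (−0.225 to 0.601), with Vehicle, Acetate and SB204990 + Etomoxir at 0.561 to 0.601, so the sets were not taken to pair the samples, and whether they share a batch was not tested. With the replicate block, 1.34% of all genes were called higher with etomoxir and 20.0% in acetate over vehicle, the acetate effects were 0.48, 0.53 and 0.48, the Pdk4 etomoxir effect 1.54, and 30, 0 and 21 pathway genes were called for acetate, etomoxir and SB204990, where 90.3% of all genes were called higher with acetate and 57.9% lower with SB204990, and no call of a member's sum or start-site interval changed. The block together with median-of-ratios scaling, chosen after seeing the data, gave the values of that scaling. The low read number behind Pdk1 limits what can be seen there.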
